A study of Xenopus laevis with 8 samples.

Results

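Genes of the fibroblast growth factor (FGF) receptors and of the proteins that work with them at the cell membrane were followed across 4 groups of explants from Xenopus laevis gastrulae. The 8 gene names fgfr1, fgfr2, fgfr3, fgfr4, frs2, frs3, flrt3 and il17rd were matched to the rows of a count table, with or without the suffixes .L and .S. X. laevis is allotetraploid, and these suffixes mark the copies of a gene on the longer (.L) and the shorter (.S) chromosome of a matching pair. They do not give the length of the gene. A row listed only by its NCBI gene number was included where its RefSeq symbol was one of the 8, which added fgfr2.S, frs3.L and il17rd.L. In this way 14 of 35649 rows were found, and 13 of them passed the filter on low counts; the row that did not was frs3.L.

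FGFs are secreted ligands that bind receptor tyrosine kinases on the cell surface, together with heparan sulfate chains. The bound receptors phosphorylate the docking protein Frs2, which recruits Grb2 and Sos and so switches on Ras and the MAP kinase cascade. In the Xenopus gastrula this pathway is known for maintaining the mesodermal T-box gene t (Brachyury) and for the morphogenetic movements of the trunk. Flrt3, a transmembrane protein with leucine-rich repeats, binds FGF receptors and also acts on cell adhesion, and the membrane protein encoded by il17rd (Sef) is known as a feedback inhibitor of FGF signalling.

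The control ectoderm group held 2 samples of untreated ectodermal explants. The Flag-Pinhead group held 2 samples of such explants with 1.5 ng of RNA for Flag-tagged Pinhead, a secreted protein. The control marginal zone group held 2 samples of untreated explants of the mesoderm-forming marginal zone. The PhSpMo group held 2 samples of marginal zone that carried the Pinhead morpholino PhSpMo, 40 ng in each blastomere at the 4-cell stage. The ectoderm samples are labelled stage 11 and the marginal zone samples stage 10.5, while the series text gives stage 11 for all. If the labels hold, tissue and stage cannot be told apart. Controls were untreated, so injection itself and either treatment cannot be told apart. Whether replicates came from different clutches is not stated in the labels, so the p-values cover only the spread among these samples, and that spread may be technical.

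Total counts were 12551618 to 19719311 per sample. The 2 PhSpMo samples differed by a mean chi-square per gene of 1.43, within the 1.29 to 1.46 found between 2 columns of 1 sample in the other groups. Between the 2 samples of a group it was 2.05 in control marginal zone, 2.27 in control ectoderm and 11.9 in Flag-Pinhead ectoderm, whose samples lay furthest apart on this measure. The mean includes pnhd, the gene of the injected RNA, with 494957 and 911907 counts in the 2 Flag-Pinhead samples. It was not computed without pnhd, so 11.9 does not give the spread of the explants' own genes alone. The 2 columns named for 1 PhSpMo sample differed by 2.38 and 2.44, so the PhSpMo columns may be crossed, and PhSpMo was therefore counted as 1 sample with no SD. Levels are given as CPM, counts scaled to library size with TMM factors. The injected gene pnhd, summed over its copies, stood at 17.1 and 19.7 CPM in control ectoderm and at 34481 and 64629 CPM in the Flag-Pinhead samples. It stood at 168 and 167 CPM in control marginal zone and at 85.7 CPM with PhSpMo. The mesoderm markers vegt, eomes, t, wnt8a and others (16 rows) summed to between 2308 and 2419 CPM in control marginal zone and to between 42.2 and 44.1 CPM in control ectoderm, as the tissue labels have it. In whole explants, fewer cells of a type and less RNA per cell cannot be told apart.

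In ectoderm, Flag-Pinhead RNA was accompanied by an exchange among the receptor genes. Both copies of fgfr4 fell, by 1.77 and 1.55 on the log2 scale, while fgfr1 and fgfr2 rose in both of their rows, by 0.84 to 1.43. Of the 13 tested rows 7 rose, 2 fell and 4 did not pass edgeR's quasi-likelihood test at an adjusted p of 0.05. Over all 22241 genes tested, 27.4% were called, 15.5% as raised and 11.9% as lowered. The median log2 fold change of the 13 rows was 1.00, against 0.00 over all genes tested. This middle value is that of frs3.S, an uncalled row with 7 to 17 counts in each ectoderm sample. Its neighbours in rank were fgfr1.L at 0.84 and il17rd.L at 1.03.

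The 2 rows of fgfr4, the receptor with the highest count in control ectoderm, were the ones that fell. The level of fgfr4.L was 208 and 200 CPM in control ectoderm and 53.8 and 65.6 CPM with Flag-Pinhead RNA. For fgfr4.S the levels were 334 and 329 CPM against 105 and 122 CPM. In both rows each treated sample lay far below each control, though with 2 samples against 2 such a separation is no test by itself. The log2 fold change was -1.77 for fgfr4.L (SE 0.07, adjusted p = 9.04e-17) and -1.55 for fgfr4.S (SE 0.06, adjusted p = 1.08e-16, edgeR's quasi-likelihood test), which is 3.42-fold and 2.92-fold lower.

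The rises of fgfr1 and fgfr2, both receptors for many FGF ligands, passed the test in all 4 rows. The level of fgfr1.S was 110 and 117 CPM in control ectoderm and 262 and 260 CPM with the RNA, a log2 fold change of 1.20 with an SE of 0.06 (adjusted p = 6.93e-15). For fgfr1.L it went from 39.4 and 41.5 to 74.5 and 69.9 CPM (log2 fold change 0.84, SE 0.07). No treated sample of either row overlapped a control. With 2 samples against 2 this is no test, and the share of all genes without overlap was not counted. For fgfr2.L the levels were 86.2 and 85.6 CPM in controls and 204 and 214 CPM with the RNA, a log2 fold change of 1.28 with an SE of 0.06 (adjusted p = 1.98e-15). For fgfr2.S they were 25.9 and 28.1 against 71.1 and 74.1 CPM, a log2 fold change of 1.43 (SE 0.08). The fgfr2 pair thus stood at 2.43-fold and 2.69-fold of its control level.

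The receptor gene fgfr3 was read at a low level and passed no test in this comparison. The row listed as fgfr3 lay at 9.50 and 9.12 CPM in control ectoderm and at 9.27 and 11.1 CPM with the RNA, so the groups overlapped. For fgfr3.L the levels were 7.33 and 7.98 against 9.06 and 9.85 CPM. The 95% intervals of the log2 fold change ran from -0.18 to 0.44 for fgfr3 and from -0.05 to 0.67 for fgfr3.L, so a rise of up to 1.36-fold or 1.59-fold lies within them.

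**Figure D1:**
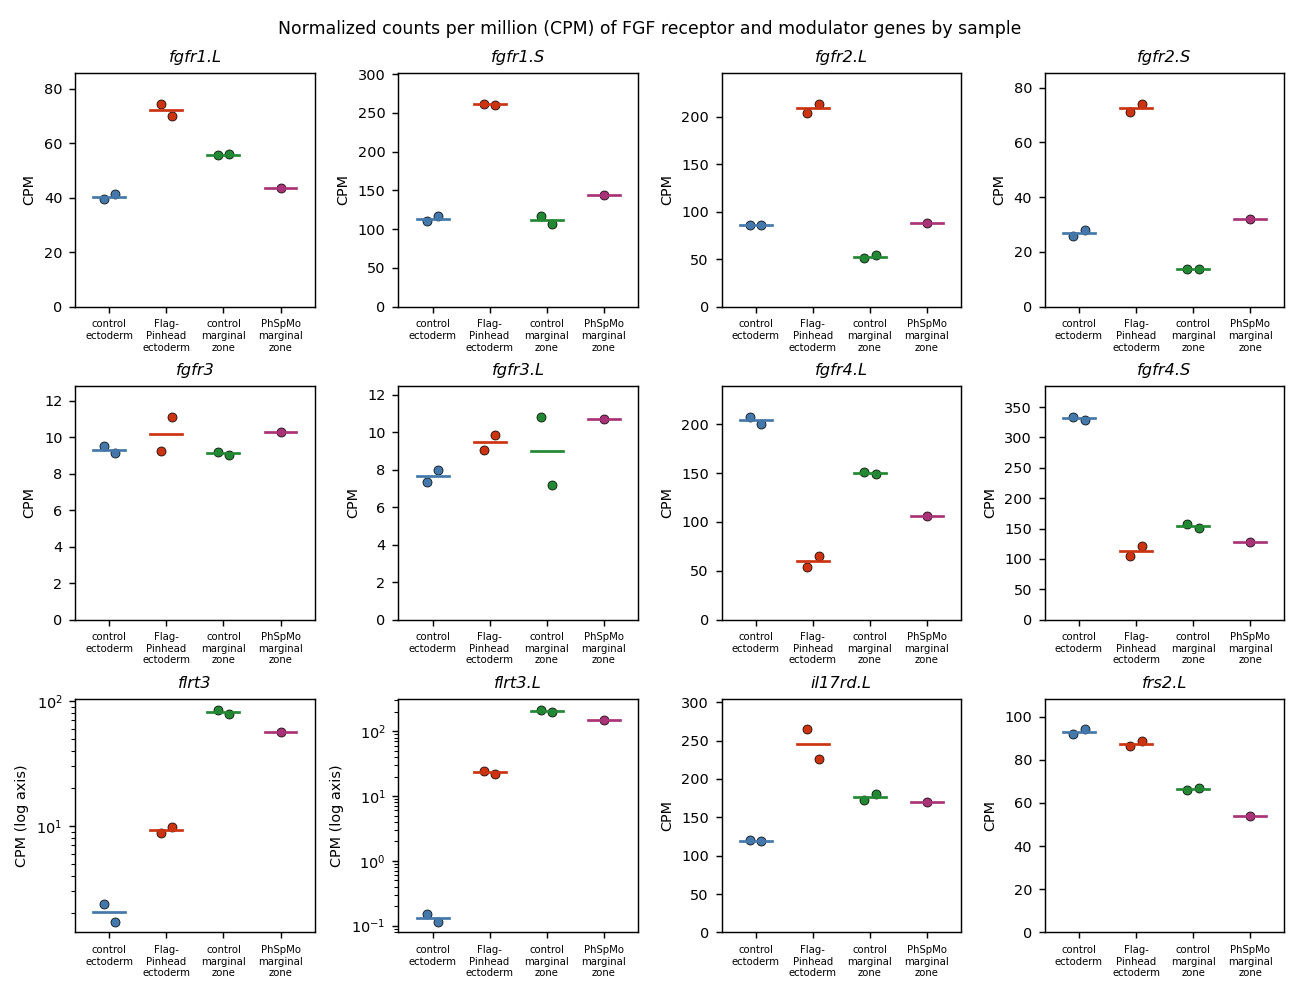
Level of 12 gene rows in each sample, in CPM scaled with TMM factors; points are samples (1 summed point for PhSpMo) and bars are group means, with log axes for the 2 flrt3 rows and linear axes from 0 for the others. In Flag-Pinhead ectoderm both fgfr4 rows lie below control ectoderm (fgfr4.L at 53.8 and 65.6 against 208 and 200 CPM) while the fgfr1, fgfr2, flrt3 and il17rd rows lie above it.

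The exchange left the summed receptor counts almost level. Over fgfr1 to fgfr4 and all copies, receptors summed to 821 and 819 CPM in control ectoderm and to 789 and 826 CPM with Flag-Pinhead RNA. Of these receptor counts fgfr4 made up 66.1% and 64.6% in control ectoderm (exact 95% binomial intervals 65.3 to 66.8 and 63.9 to 65.4). With the RNA its share was 20.1% and 22.7% (19.4 to 20.9 and 21.9 to 23.5). The share of fgfr1 went from 18.2% and 19.4% to 42.7% and 39.9%, and that of fgfr2 from 13.7% and 13.9% to 34.9% in both treated samples. The receptor with most counts was therefore fgfr4 in control ectoderm and fgfr1 in Flag-Pinhead ectoderm. These are shares of reads and not of transcripts, since transcript lengths were not used, and the intervals cover counting error only. A permutation test of 2 samples against 2 cannot go below p = 0.333, so the shares carry no test of their own.

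**Figure D2:**
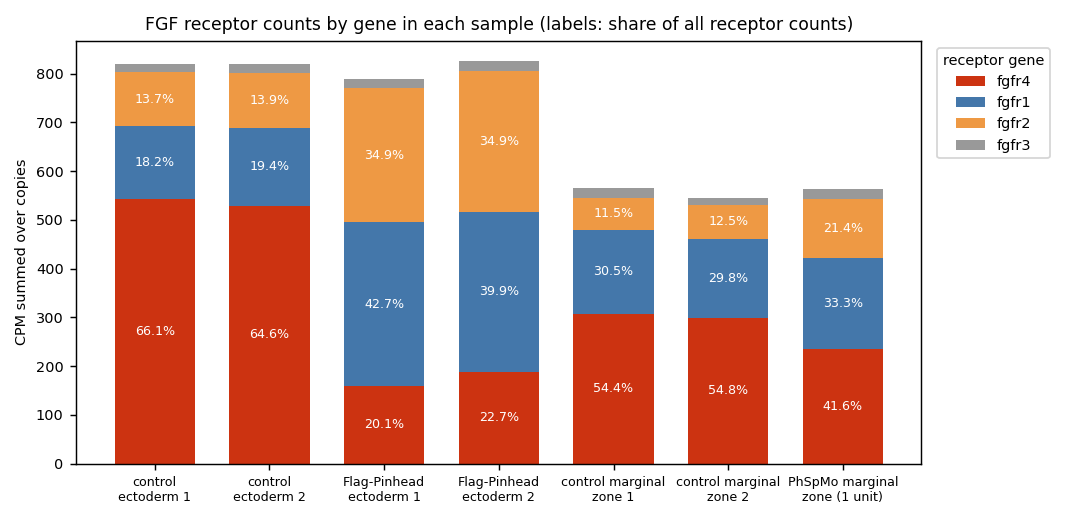
Receptor counts in each sample as stacked bars, in CPM summed over the copies of each gene; the printed labels are shares of all receptor counts. The bars of control and Flag-Pinhead ectoderm are of like height (821, 819, 789 and 826 CPM), while the share of fgfr4 is 66.1% and 64.6% in the first and 20.1% and 22.7% in the second.

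The membrane partners rose with the RNA as well, flrt3 by far the most. In control ectoderm flrt3.L had 3 and 2 counts (0.152 and 0.114 CPM), and with Flag-Pinhead RNA it had 350 and 311 counts (24.4 and 22.0 CPM). The ratio of the normalized counts was 173 (exact 95% counting interval 73.9 to 536), with a fitted log2 fold change of 7.36 (SE 0.23, adjusted p = 9.30e-19) that rests on those 5 control counts. The row listed as flrt3, without a suffix, went from 2.37 and 1.71 to 8.71 and 9.78 CPM, a log2 fold change of 2.16 with an SE of 0.18 (adjusted p = 2.89e-10). The inhibitor gene il17rd.L rose from 120 and 119 to 264 and 225 CPM, a log2 fold change of 1.03 with an SE of 0.06 (adjusted p = 1.03e-12).

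The docking protein genes did not pass the test. For frs2.L the level was 91.9 and 94.1 CPM in control ectoderm and 86.2 and 88.7 CPM with the RNA. Its log2 fold change was -0.09 (95% interval -0.22 to 0.04), so a fall to below 0.86-fold lies outside the interval. The paralog frs3 was hardly read, with 7 to 17 counts of frs3.S and 2 to 6 counts of frs3.L in each ectoderm sample, and a change of it was not detectable at this depth.

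Cell type markers moved in the same comparison. Of 16 rows of mesoderm markers 13 rose and none fell, and their sum went from between 42.2 and 44.1 CPM to between 800 and 802 CPM. In control ectoderm gsc.L, mespa.L and mespa.S had no count in either sample. Of 15 rows of epidermis markers 12 fell and 1 rose, with a sum of 2553 to 2595 CPM in controls and 1461 to 1654 CPM with the RNA. Of 14 endoderm rows 7 rose, among them endod1.L. Between the control tissues 12 of the 14 were higher in marginal zone and 2 lower, among them endod1.L at -0.58 (SE 0.14). The rise of endod1.L is therefore not read as a change of endoderm. Of 16 neural rows 10 rose and 3 fell, which were pou5f3.2.L, pou5f3.2.S and gmnn.S. Means of these 3 were 2228, 614 and 228 CPM in control ectoderm and 2728, 1422 and 298 CPM in control marginal zone. As they were high in both control tissues, their falls are not read as a neural change. Between the control tissues 11 of the 16 were higher in marginal zone and 3 lower. Over all genes 15.5% rose and 11.9% fell with the RNA. Between the control tissues 26.5% were higher and 26.3% lower in marginal zone. The marker counts are of listed rows and do not settle cell types. The part of the marker shifts in the receptor changes was not tested.

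In the marginal zone, PhSpMo was accompanied by changes of receptor genes that were not all opposite in direction to those with the RNA. Of 13 tested rows 3 rose, 6 fell and 4 did not pass, while over all genes 18.7% were called, 8.22% as raised and 10.5% as lowered. The median log2 fold change of the 13 rows was -0.23, against 0.00 over all genes. This middle value too is that of frs3.S, which was uncalled and near the floor. Its neighbours in rank were fgfr4.S at -0.26 and il17rd.L at -0.06. Both fgfr2 rows rose and both fgfr4 rows fell, as they did with Flag-Pinhead RNA, while both flrt3 rows and fgfr1.L fell.

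Among the receptor rows, the 2 of fgfr2 had the largest fold changes with PhSpMo. For fgfr2.L the level was 51.3 and 54.3 CPM in control marginal zone and 88.4 CPM with PhSpMo, with 78.0 to 98.2 CPM over the 4 PhSpMo columns. For fgfr2.S it was 13.9 and 13.7 CPM against 31.9 CPM (29.3 to 35.7 over the columns). The 4 columns are parts of 1 summed PhSpMo sample and not replicates, so their range gives no spread between samples. The log2 fold changes were 0.74 (SE 0.07, adjusted p = 3.73e-08) and 1.21 (SE 0.11, adjusted p = 6.30e-09, edgeR's quasi-likelihood test).

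The fall of fgfr4 was smaller here than in ectoderm. The level of fgfr4.L was 151 and 149 CPM in controls and 106 CPM with PhSpMo (102 to 114 over the columns), a log2 fold change of -0.49 with an SE of 0.08 (adjusted p = 5.67e-05). For fgfr4.S it was 157 and 150 against 128 CPM (120 to 133), a log2 fold change of -0.26 with an SE of 0.07 (adjusted p = 0.0135). The call of fgfr4.S ended without control marginal zone replicate 1 (adjusted p = 0.136) or replicate 2 (0.0600). Summed receptor counts stood at 565 and 546 CPM in controls and at 563 CPM with PhSpMo. The share of fgfr4 in them was 54.4% and 54.8% in controls and 41.6% with PhSpMo (exact 95% interval 40.9 to 42.3), and that of fgfr2 was 12.0% ± 0.646 (SD, n = 2) against 21.4% (20.8 to 22.0).

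The 2 rows of fgfr1 moved apart with PhSpMo. For fgfr1.L the level was 55.7 and 55.9 CPM in controls and 43.4 CPM with PhSpMo (41.6 to 45.9 over the columns), a log2 fold change of -0.36 with an SE of 0.09 (adjusted p = 0.0036). For fgfr1.S it was 117 and 107 against 144 CPM (140 to 148), a log2 fold change of 0.37 with an SE of 0.07 (adjusted p = 0.000363). With both rows summed before the fit, a setting added after the data were seen, fgfr1 did not pass (log2 fold change 0.17, SE 0.06, adjusted p = 0.0779). RefSeq v10.1 gives fgfr1.S only as another name of fgfr1.L, so reads of the 2 rows may have been split between them by the counting.

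Both flrt3 rows fell with PhSpMo, and the docking gene frs2.L fell slightly. For flrt3.L the level was 216 and 198 CPM in controls and 151 CPM with PhSpMo (139 to 163 over the columns), a log2 fold change of -0.46 with an SE of 0.07 (adjusted p = 5.54e-05). The row flrt3 went from 85.3 and 78.2 to 56.3 CPM (46.5 to 62.0), a log2 fold change of -0.54 with an SE of 0.10 (adjusted p = 0.000266). For frs2.L the level was 66.0 and 67.1 against 54.0 CPM (log2 fold change -0.30, SE 0.08, adjusted p = 0.0066), and this call ended without control marginal zone replicate 2 (0.0639). The level of il17rd.L was 172 and 180 CPM in controls and 169 CPM with PhSpMo, with a log2 fold change between -0.21 and 0.10 at 95%. The fgfr3 rows did not pass, at log2 fold changes of 0.18 (SE 0.17) for fgfr3 and 0.26 (SE 0.19) for fgfr3.L. For frs3.S there were 6 and 8 counts in controls and 13 in the deeper PhSpMo sum.

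In the same comparison, where 10.5% of all genes fell and 8.22% rose, 7 of 16 mesoderm rows fell and none rose. The sum of the mesoderm rows went from between 2308 and 2419 CPM to 1886 CPM. Of 14 endoderm rows 11 fell and 1 rose, which was endod1.L, and of 15 epidermis rows 13 fell. As endod1.L was lower in control marginal zone than in control ectoderm (means of 9.33 and 13.9 CPM), its rise is not read as a change of endoderm. Of 16 neural rows 11 fell and 1 rose, which was gmnn.L. As gmnn.L was also read in control ectoderm, at a mean of 37.1 CPM, its rise is not read as a neural change. Epidermis markers summed to 1521 to 1570 CPM in controls and to 1047 CPM with PhSpMo. The part of these falls in the changes of flrt3 and fgfr4 was not tested.

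**Figure D3:**
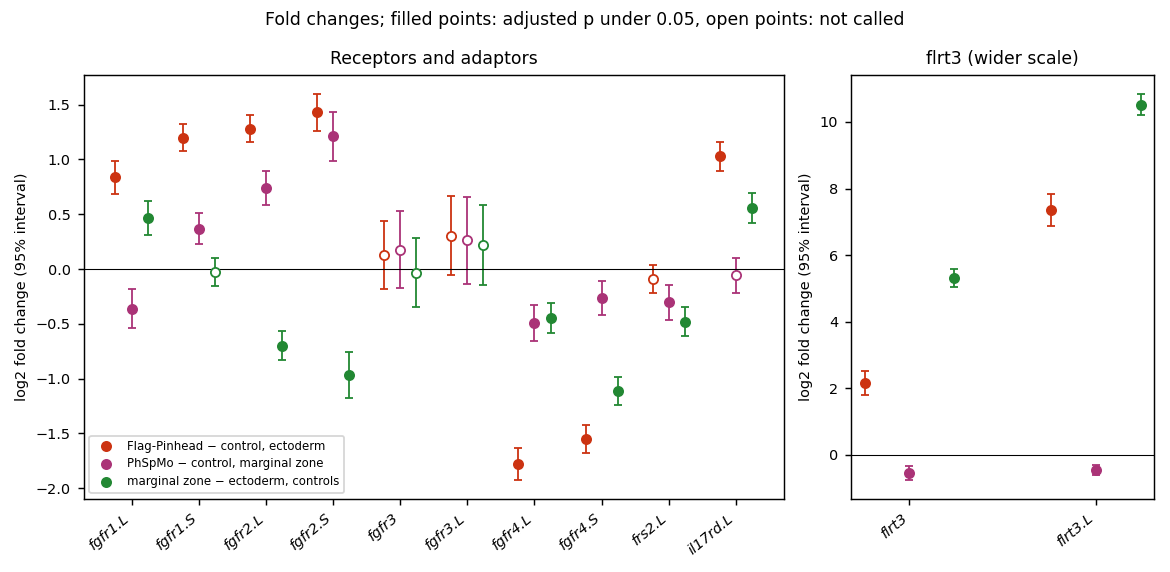
Log2 fold changes with 95% intervals of the fit for 3 comparisons: Flag-Pinhead against control ectoderm, PhSpMo against control marginal zone, and control marginal zone against control ectoderm; filled points passed an adjusted p of 0.05 and open points did not. The fgfr2 rows lie above 0 and the fgfr4 rows below 0 for both treatments (fgfr4.L at -1.77 and -0.49), while flrt3.L lies at 7.36 with the RNA and -0.46 with PhSpMo. The intervals of flrt3.L against control ectoderm are too narrow, as they rest on 5 counts there.

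The 2 treatments, each against its own control, were then compared by the difference of their log2 fold changes. Of 13 rows 6 had a higher and 2 a lower fold change with Flag-Pinhead RNA than with PhSpMo, and 24.7% of all genes were called, 13.8% as higher and 10.9% as lower. The fall of fgfr4 was deeper with the RNA in both rows, with differences of -1.28 for fgfr4.L (SE 0.11, adjusted p = 5.82e-10) and -1.29 for fgfr4.S (SE 0.10, adjusted p = 8.71e-11). The rise of fgfr2.L was larger with the RNA by 0.54 (SE 0.10, adjusted p = 0.000112). For fgfr2.S the difference of 0.22 did not pass (95% interval -0.07 to 0.51, adjusted p = 0.283). Larger differences were found for fgfr1.L at 1.20 (SE 0.11), fgfr1.S at 0.83 (SE 0.09), il17rd.L at 1.09 (SE 0.10), flrt3 at 2.70 (SE 0.20) and flrt3.L at 7.82 (SE 0.25). The SE of the flrt3.L difference is too small, as it rests on 5 control ectoderm counts. The treatments differ in tissue, labelled stage, dose and reagent too, and these cannot be told apart from the direction of the Pinhead manipulation.

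Without treatment, the tissues differed in most of these genes, in a background where 52.8% of all genes were called, with 26.5% higher in the marginal zone and 26.3% higher in ectoderm. Of 13 rows 4 were higher and 5 lower in control marginal zone than in control ectoderm. Labelled stage goes with tissue here and in the next comparison, and cannot be told apart from it. The widest gap was that of flrt3.L, with a marginal zone level of 216 and 198 CPM, or 1541 times that of control ectoderm (exact 95% counting interval 660 to 4747, on 5 ectoderm counts). The row flrt3 was 39.5 times as high. Both fgfr4 rows were lower in the marginal zone, with log2 differences of -0.45 (SE 0.07) for fgfr4.L and -1.11 (SE 0.06) for fgfr4.S, and both fgfr2 rows were lower, at -0.70 (SE 0.07) and -0.97 (SE 0.10). Further, fgfr1.L was higher by 0.47 (SE 0.07), il17rd.L was higher by 0.56 (SE 0.06) and frs2.L was lower, at -0.48 (SE 0.06). For fgfr1.S the difference was -0.03 (95% interval -0.15 to 0.10). With both fgfr1 rows summed before the fit, fgfr1 did not pass here either (log2 difference 0.13, SE 0.05, adjusted p = 0.0580).

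Flag-Pinhead ectoderm did not match the control marginal zone in its receptors. In this comparison, which shares samples with those above, 6 of 13 rows were higher and 4 lower in Flag-Pinhead ectoderm, while 59.7% of all genes were called, 31.5% as higher and 28.2% as lower. Levels of fgfr2.L were 204 and 214 CPM in Flag-Pinhead ectoderm and 51.3 and 54.3 CPM in control marginal zone, a log2 difference of 1.98 (SE 0.06, adjusted p = 5.36e-19). For fgfr2.S the difference was 2.40 (SE 0.09) and for fgfr1.S 1.23 (SE 0.06). Both fgfr4 rows were below the marginal zone, at -1.33 (SE 0.07) for fgfr4.L and -0.44 (SE 0.06) for fgfr4.S. The level of flrt3.L remained 8.92-fold under that of the marginal zone, and that of flrt3 8.83-fold under it.

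Placed in order over the 4 groups, fgfr4.L was highest in control ectoderm, followed by control marginal zone, PhSpMo marginal zone and Flag-Pinhead ectoderm. For fgfr4.S the means had the same order, but the PhSpMo columns (120 to 133 CPM) overlapped Flag-Pinhead ectoderm (105 and 122 CPM). For fgfr2.L the order was Flag-Pinhead ectoderm (209 ± 6.91 CPM, SD, n = 2), PhSpMo marginal zone (88.4 CPM), control ectoderm (85.9 ± 0.421 CPM) and control marginal zone (52.8 ± 2.12 CPM). The PhSpMo columns, at 78.0 to 98.2 CPM, spanned the level of control ectoderm. Ranges over the columns give no spread between samples, and PhSpMo was not tested against either ectoderm group, so these orders are of levels only. For il17rd.L the order was Flag-Pinhead ectoderm, control marginal zone, PhSpMo and control ectoderm, with the middle 2 differing by less than the test could call. For flrt3.L it was control marginal zone, PhSpMo, Flag-Pinhead ectoderm and control ectoderm.

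The share of each row in the counts of its pair was then compared across the groups. The row flrt3 held 94.0% and 93.8% of the counts of its pair in control ectoderm (47 of 50 and 30 of 32 counts). It held 26.3% and 30.7% in Flag-Pinhead ectoderm, 28.3% in both control marginal zone samples and 27.2% with PhSpMo. The few flrt3 counts of control ectoderm were thus mostly of the row without a suffix, and the other groups had mostly flrt3.L. RefSeq v10.1 gives flrt3 and fgfr3 without a suffix only as other names of their .L and .S genes. Which copy these rows count is therefore not settled. For fgfr4 the share of fgfr4.L was 38.3% and 37.9% in control ectoderm, 33.9% and 35.0% in Flag-Pinhead ectoderm, 49.0% and 49.8% in control marginal zone and 45.4% with PhSpMo. The share of fgfr1.L was 32.3% and 34.4% in control marginal zone and 23.2% with PhSpMo (exact 95% interval 22.1 to 24.3). It was 26.3% and 26.1% in control ectoderm and 22.1% and 21.2% in Flag-Pinhead ectoderm. The share of fgfr2.L was 78.7% and 79.9% in control marginal zone, 73.5% with PhSpMo (exact 95% interval 72.0 to 74.9) and 74.2% to 76.9% in the ectoderm samples. These shares were not tested between groups, and reads that fit both copies may have been split or dropped.

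**Figure D4:**
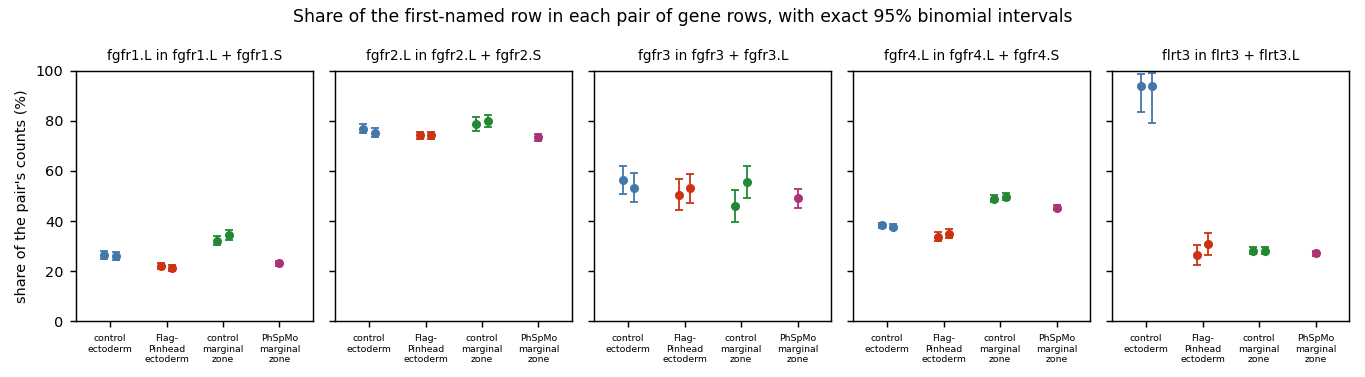
Share of the first-named row in the counts of each pair of rows (percent, vertical axis) by group; points are samples (1 summed point for PhSpMo) and bars are exact 95% binomial intervals, which cover counting error only. The flrt3 row holds 94.0% and 93.8% of its pair in control ectoderm and 26.3% to 30.7% in the other groups.

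The genes with the level pattern most like that of a member over the 7 samples were found among 14270 genes with a symbol. The measure was the root mean square difference of log2 CPM after centring, with 0.1 CPM added before the log. For fgfr4.L they were pdgfb.L, a platelet-derived growth factor gene (0.05), the ectodermal transcription factor gene tfap2a.S (0.11), and the receptor genes s1pr5.S (0.12) and gpr4.S (0.15). The level of pdgfb.L was 27.7 and 27.8 CPM in control ectoderm, 7.52 and 8.36 with Flag-Pinhead RNA, 20.2 in both control marginal zone samples and 15.4 CPM with PhSpMo. For flrt3.L the nearest was t.S, a copy of Brachyury, at 0.37, followed by the homeobox gene mixer.S (0.71) and the forkhead genes foxa4.L (0.75) and foxa4.S (0.77). In control ectoderm these genes had 0 to 4 counts, and flrt3.L had 3 and 2. That part of their distance rests largely on the added 0.1 CPM. The level of t.S was 0.00 and 0.06 CPM in control ectoderm, 10.2 and 7.65 with the RNA, 103 and 81.1 in control marginal zone and 45.5 CPM with PhSpMo. For fgfr1.L the nearest were slc7a8.L (0.07), slc4a8.S (0.09), ccnj.L (0.09) and slc9a8.S (0.09).

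Genes that stand before and after the receptors in the pathway were counted from 5 lists. In ectoderm with Flag-Pinhead RNA, FGF ligand genes rose in 7 of 12 tested rows and fell in none, and feedback inhibitors rose in 14 of 20 and fell in none, beside 15.5% of all genes raised and 11.9% lowered. The ligand gene fgf8.L went from 0.449 ± 0.151 to 44.3 ± 9.40 CPM and fgf8.S from 1.84 ± 0.384 to 39.6 ± 2.50 CPM (SD, n = 2 each), and fgf20.S from 0.130 ± 0.103 to 9.61 ± 2.07 CPM. Among the inhibitors, the Sprouty genes spry1.L, spry2.S and spry4.L rose by 3.09 (SE 0.14), 2.61 (SE 0.14) and 4.10 (SE 0.21) on the log2 scale. The median log2 fold change was 2.96 for the ligand rows and 1.02 for the inhibitor rows, against 0.00 over all genes tested.

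Of 37 co-receptor and heparan sulfate rows 7 rose (18.9%) and 6 fell (16.2%) with the RNA, shares near the 15.5% and 11.9% of all genes. The sulfatase gene sulf1.L, whose product trims heparan sulfate, rose from 23.3 ± 2.13 to 83.0 ± 14.7 CPM, and the core protein genes sdc2.S and gpc4.S rose by 1.35 (SE 0.08) and 0.73 (SE 0.07). The syndecan rows sdc4.L and sdc4.S fell, at -0.74 (SE 0.10) and -0.62 (SE 0.08), as did the epimerase gene glce.L at -0.71 (SE 0.08). Of 40 signal transduction rows 7 rose (17.5%), a share near that of all genes, and 10 fell (25%), beside 11.9% of all genes. Those called included grb2.S at -0.60 (SE 0.07), plcg1.L at -0.54 (SE 0.10) and sos2.L at 0.46 (SE 0.07). Of 18 rows of Flrt partners rnd1.L rose, at 0.38 (SE 0.06), and flrt1.L fell, at -0.73 (SE 0.27, adjusted p = 0.0409); rnd1.L encodes a GTPase that binds Flrt3. The call of flrt1.L ended with DESeq2's test (adjusted p = 0.256) and without any 1 of the 4 ectoderm samples (0.0672 to 0.266).

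With PhSpMo, feedback inhibitors fell in 8 of 20 rows and rose in 1, beside 10.5% of all genes lowered and 8.22% raised. The MAP kinase phosphatase genes dusp5.L, dusp6.L and dusp6.S fell by 0.62 (SE 0.09), 0.70 (SE 0.14) and 0.67 (SE 0.12) on the log2 scale, with dusp5.L at 80.6 CPM against 124 ± 1.51 CPM in controls (SD, n = 2). The row that rose was dusp4.L, at 0.98 (SE 0.22, adjusted p = 0.00191), and its call ended without control marginal zone replicate 2 (0.0718) and with DESeq2's test (0.0557). The ligand rows fgf8.L and fgf8.S did not pass, at log2 fold changes of -0.06 (SE 0.11) and 0.002 (SE 0.09). Their levels were 64.2 and 65.3 CPM with PhSpMo, against 66.8 ± 3.58 and 65.2 ± 0.0966 CPM in controls (SD, n = 2). Ligand rows fell in 3 of 12 and rose in none. Those that fell were fgf20.S at -0.81 (SE 0.24), fgf3.S at -1.37 (SE 0.45) and LOC108715251 at -0.88 (SE 0.21). LOC108715251 has the same RefSeq symbol as fgf3.S. All 3 calls ended without control marginal zone replicate 2 (adjusted p = 0.195, 0.125 and 0.0608), and that of fgf3.S also ended without replicate 1 (0.102). Without PhSpMo replicate 1 as named, fgf20.S was at -0.69 and fgf3.S at -1.33, and without PhSpMo replicate 2 fgf3.S was at -1.42. As the PhSpMo columns may be crossed, these fits may lower the depth only and leave out no whole sample. With DESeq2's test on all samples none of the 3 passed (adjusted p = 0.164 for fgf20.S, 0.223 for fgf3.S and 0.507 for LOC108715251), and with a robust spread estimate LOC108715251 did not pass (0.0699).

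Of 37 co-receptor and heparan sulfate rows 5 rose and 4 fell with PhSpMo. Those called included sdc2.S at 0.68 (SE 0.10), sulf1.L at -0.62 (SE 0.12) and sdc4.L at -1.39 (SE 0.13). Of 40 signal transduction rows 9 rose and 1 fell: the row that fell was hras.L, a Ras gene, at -0.87 (SE 0.08), and map2k1.S, which encodes a MAP kinase kinase, rose by 0.73 (SE 0.07). Of 18 Flrt partner rows 1 rose and 2 fell, with the cadherin gene cdh1.S at -0.76 (SE 0.09). The row that rose was flrt1.S, at 0.50 (SE 0.17, adjusted p = 0.0404), and its call ended with DESeq2's test (0.361) and in 5 of the 8 fits without 1 sample (0.0512 to 0.301). The call of rnd1.L, at -0.26 (SE 0.07, adjusted p = 0.0137), ended without control marginal zone replicate 1 (0.127) or replicate 2 (0.0577). These counts stand beside 8.22% of all genes raised and 10.5% lowered. Co-receptor and heparan sulfate rows were at 13.5% raised and 10.8% lowered, and Flrt partner rows at 5.56% and 11.1%. Signal transduction rows were further off, at 22.5% raised and 2.5% lowered. Among those raised, the calls of sos1.S and pik3ca.S ended with DESeq2's test (adjusted p = 0.168 and 0.110). No list was tested against all genes, so nothing particular to a list is read from its counts.

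**Figure D5:**
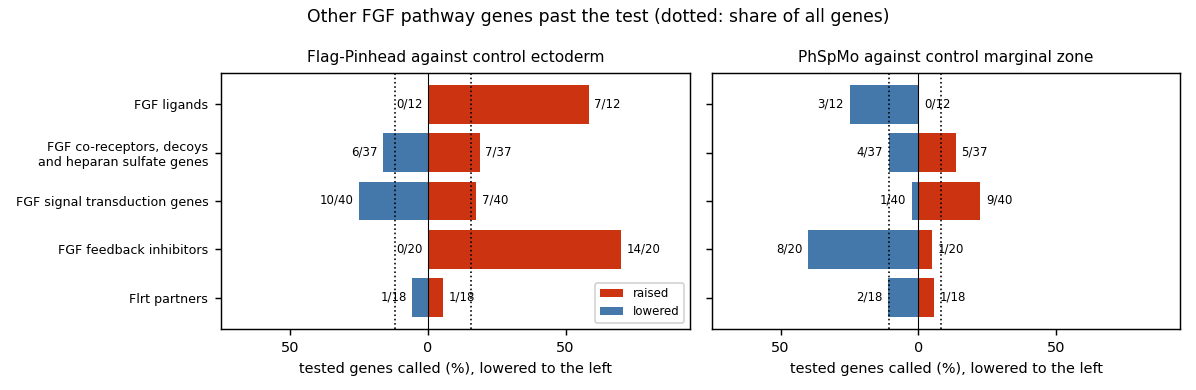
Share of the tested rows of 5 FGF pathway lists that were called raised (to the right) or lowered (to the left), in percent, for Flag-Pinhead ectoderm and for PhSpMo marginal zone, with counts at the bars; dotted lines mark the share of all genes called in each direction. Feedback inhibitors are raised in 14 of 20 rows with the RNA and lowered in 8 of 20 with PhSpMo.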

How the data were processed

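Messenger RNA of 8 explant samples was sequenced after oligo(dT) selection, per the labels' protocols. The submitters' processing notes name HISAT2, SAMtools, HTSeq and CASAVA 1.8; build, strand setting and options were not given in the sources used here, so no coordinates are printed and antisense reads cannot be told apart. The deposited table holds raw counts per gene with no normalization by the authors, 2 columns for each sample, which were added. Of 16 columns 2 have mistyped names and were given to control marginal zone replicate 1, as every other sample was complete without them. RefSeq genes of assembly X. laevis v10.1 held 21106 of 24441 LOC identifiers.

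All PhSpMo columns were summed to 1 sample. The fit so had 7 samples with 3 residual degrees of freedom, and takes the spread of PhSpMo to be that of the groups with 2. edgeR 4.0.16 (R 4.3.3) was run with filterByExpr (minimum count 10), TMM factors, 1 mean per group and quasi-likelihood F tests. P-values were adjusted by Benjamini-Hochberg over 22241 genes, with a threshold of 0.05. Each SE was obtained from the estimate and the root of its F value. Such an SE is too small where a group had few counts and the fold change was large, as for flrt3.L. Genes that share reads with a near-identical copy are uncertain. All member rows are named, and from each pathway list those called with the 3 lowest p in each direction, of which the text gives a part. Members, lists and tests were chosen with earlier results of these data known.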

Additional observations from a re-analysis of the deposited data

How the results depend on the processing

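Over the 17 settings planned, which changed the normalization, the test, the filter, the spread estimate, the treatment of the PhSpMo columns, the samples in the fit or left out 1 sample, every call of a receptor or modulator row in ectoderm with Flag-Pinhead RNA kept its direction and its side of the threshold. With PhSpMo the exceptions were fgfr4.S and frs2.L, given above. DESeq2's test called fewer genes, 3892 with Flag-Pinhead RNA, 2377 with PhSpMo and 3292 for the difference of the 2 treatments, against 6088, 4153 and 5492 with edgeR. Leaving out 1 sample gave 4054 to 6107 genes with the RNA, 2471 to 5257 with PhSpMo and 3994 to 6464 for the difference. The lowest came without control ectoderm replicate 1, without control marginal zone replicate 2 and without control ectoderm replicate 1, and leaving out control marginal zone replicate 1 gave 2672 with PhSpMo. The cause was not tested. Leaving out a PhSpMo sample as named may lower the depth only, since the PhSpMo columns may be crossed.

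With copies of a gene summed before the fit, a setting added after the data were seen, 4913 genes were called with the RNA and 3250 with PhSpMo, of 17728 tested. There the summed fgfr1 passed neither with PhSpMo nor between the control tissues, as given above, and the summed frs3 passed between Flag-Pinhead ectoderm and control marginal zone (1.22, adjusted p = 0.0490).

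Uncalled values near 0 changed sign when 1 sample was left out. With the RNA, fgfr3 ran from -0.00619 to 0.257 on the log2 scale. With PhSpMo, fgfr3.L ran from -0.0178 to 0.576 and frs3.S from -1.33 to 0.379. Between the control tissues, fgfr1.S ran from -0.0911 to 0.0413, frs3.S from -0.299 to 0.297 and fgfr3.L from -0.0924 to 0.502, and the last passed the test without control marginal zone replicate 2 (adjusted p = 0.0415). Between Flag-Pinhead ectoderm and control marginal zone, fgfr3.L ran from -0.196 to 0.399. In the difference of the treatments, fgfr3 ran from -0.181 to 0.0827 and fgfr3.L from -0.270 to 0.324, and with no filter on low counts fgfr3.L was -0.000600. In that difference frs2.L passed with PhSpMo as 2 libraries as named (adjusted p = 0.0474).

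Equal sample numbers are not stated to mark a shared clutch or day. Correlations of same-numbered samples' deviations were between -0.03 and 0.01 over 17730 genes. Those with PhSpMo used its samples as named. If these are crossed, neither the correlations nor the block fit below can show a pairing for PhSpMo. With the replicate number as a block and PhSpMo as 2 libraries, 6290 genes were called with the RNA, 5493 with PhSpMo, 11875 between the control tissues, 13222 between Flag-Pinhead ectoderm and marginal zone, and 6468 for the difference. Scaling of receptor shares by transcript length was not run, as no lengths were at hand. Depth limits frs3 the most, with 17 counts at most in a sample.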
